A study of Mus musculus with 6 samples.

Results

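The genes described here are 10 markers of retinal astrocytes and Müller glia: Pax2, Gfap, Pdgfra, Aqp4, S100b, Aldh1l1, Glul, Rlbp1, Slc1a3 and Kcnj10. They were chosen by symbol, and all 10 were among the 24421 genes of the count table and among the 14362 genes tested. The RNA came from retinal endothelial cells of 7-day-old mouse pups (postnatal day 7) of mixed BL6/CD1 strain that had been given tamoxifen on postnatal day 1. In the 3 samples called Smad4-iECKO, floxed Smad4 was combined with Cdh5-CreERT2, a Cre recombinase that tamoxifen activates and that the endothelial Cdh5 promoter drives. The 3 samples called Smad4f/f had the floxed alleles but no Cre. The promoter that drives Cre is endothelial and not glial, and the labels do not say how the cells were isolated.

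Retinal astrocytes enter the eye along the optic nerve as PAX2-positive precursors, spread over the inner retina under PDGF-A from ganglion cells, and form the template along which the first vessels grow. They secrete VEGF-A and make GFAP as they mature. Müller glia arise within the retina, span its whole depth, recycle glutamate and retinoids and regulate potassium and water. Both cell types touch the vessels with endfeet.

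The prepared cells held endothelial and neural retinal RNA in all libraries, and all 10 genes can be read only as levels in this mixture. A list of 18 endothelial genes, with Pecam1 and Cdh5 among them, took 0.1799% to 0.882% of counts in Smad4f/f and 0.298% to 0.545% in Smad4-iECKO. A list of 12 rod photoreceptor genes took 0.655% to 1.30% and 0.653% to 1.07%. Total counts ran from 12633018 to 23164952, except for Smad4-iECKO replicate 2 with 2233360. This shallow library also stood apart in its correlation of log2 CPM with the others across genes, which was 0.8165 to 0.858, while each of the others reached at least 0.944 with some library. Smad4 itself was at 140.0 ± 26.5 CPM (read counts scaled to library size by TMM, mean ± SD, n = 3) in Smad4f/f and 118.7 ± 21.7 CPM in Smad4-iECKO. A count over the whole gene in this mixture does not check the labels, and deleted exons were not counted apart. In bulk RNA, fewer cells of a type and less RNA per cell cannot be told apart.

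Promoter sequences are printed for 3 members because Gfap, Pdgfra and S100b had the same trio of highest libraries. All 9 members looked up (Aqp4 was not) had a promoter entry. Each window runs from 250 bases before to 50 bases after a RefSeq transcription start (GRCm38.p6, the mm10 assembly), written 5′ to 3′ on the gene's strand. Gfap lies at chr11:102897151-102897450 (minus strand), Pdgfra at chr5:75152001-75152300 (plus strand) and S100b at chr10:76253586-76253885 (plus strand). Capitals mark matches, on either strand, to the SMAD box CAGAC or to the STAT core TTCNNNGAA.
Gfap: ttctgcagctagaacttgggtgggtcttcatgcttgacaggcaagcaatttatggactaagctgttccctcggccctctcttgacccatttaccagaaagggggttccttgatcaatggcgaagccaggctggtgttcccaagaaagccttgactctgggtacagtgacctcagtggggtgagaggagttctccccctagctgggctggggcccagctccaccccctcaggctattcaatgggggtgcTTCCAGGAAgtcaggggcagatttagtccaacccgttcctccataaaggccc
Pdgfra: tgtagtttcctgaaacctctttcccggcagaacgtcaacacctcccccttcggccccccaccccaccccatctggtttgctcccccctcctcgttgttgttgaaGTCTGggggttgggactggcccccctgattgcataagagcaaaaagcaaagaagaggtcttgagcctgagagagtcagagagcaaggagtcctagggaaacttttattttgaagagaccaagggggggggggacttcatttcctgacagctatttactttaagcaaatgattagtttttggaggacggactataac
S100b: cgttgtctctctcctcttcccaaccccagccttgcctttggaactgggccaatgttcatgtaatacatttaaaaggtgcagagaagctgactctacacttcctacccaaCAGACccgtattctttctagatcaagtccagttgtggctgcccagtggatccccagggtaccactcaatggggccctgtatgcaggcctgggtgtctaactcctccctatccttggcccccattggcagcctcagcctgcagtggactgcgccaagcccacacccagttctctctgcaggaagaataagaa
The STAT core began at base 249 of the Gfap window, and the SMAD box at base 105 of the Pdgfra window and base 110 of the S100b window. Of 32851 promoters of this length, 8.30% held the STAT core and 49.6% the SMAD box, so a SMAD box alone sets no gene apart. A match of letters is a description and not a binding site. The same windows held no match to the SOX core ACAAT or to the TATA box TATAAA, which says only that these letters are not there.

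Per kilobase of exon, Glul was the most abundant of the 10 genes and Aqp4 the least. Levels between genes are compared on this scale, as CPM divided by the exonic length in GENCODE M21, and averaged over all 6 libraries. Glul, which encodes glutamine synthetase, was at 99.7 CPM per kb. Rlbp1, the retinoid carrier CRALBP of Müller glia, was at 38.4, Gfap at 24.4, Slc1a3 at 17.3, Pdgfra at 16.6 and S100b at 8.58 CPM per kb. Kcnj10 was at 1.69, Pax2 at 1.19, Aldh1l1 at 0.857 and Aqp4 at 0.146 CPM per kb. Several neighbours in this order were not separated by their spread. Slc1a3 covered 12.9 to 22.9 CPM per kb over the libraries, inside the range of Pdgfra (5.71 to 38.7) and of Gfap (6.38 to 61.8).

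The genes also differed in how evenly the libraries held them. Slc1a3 varied 1.77-fold and Rlbp1 2.06-fold between the highest and lowest library, and Glul 3.71-fold. Gfap varied 9.69-fold, S100b 10.7-fold, Pax2 11.1-fold and Aldh1l1 24.6-fold. Smad4-iECKO replicate 3 was the highest library for 5 of the 10 genes, namely Pax2, Gfap, Pdgfra, Rlbp1 and Slc1a3, and Smad4f/f replicate 1 was the lowest for 4, namely Pax2, Aldh1l1, Rlbp1 and Kcnj10.

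**Figure D1:**
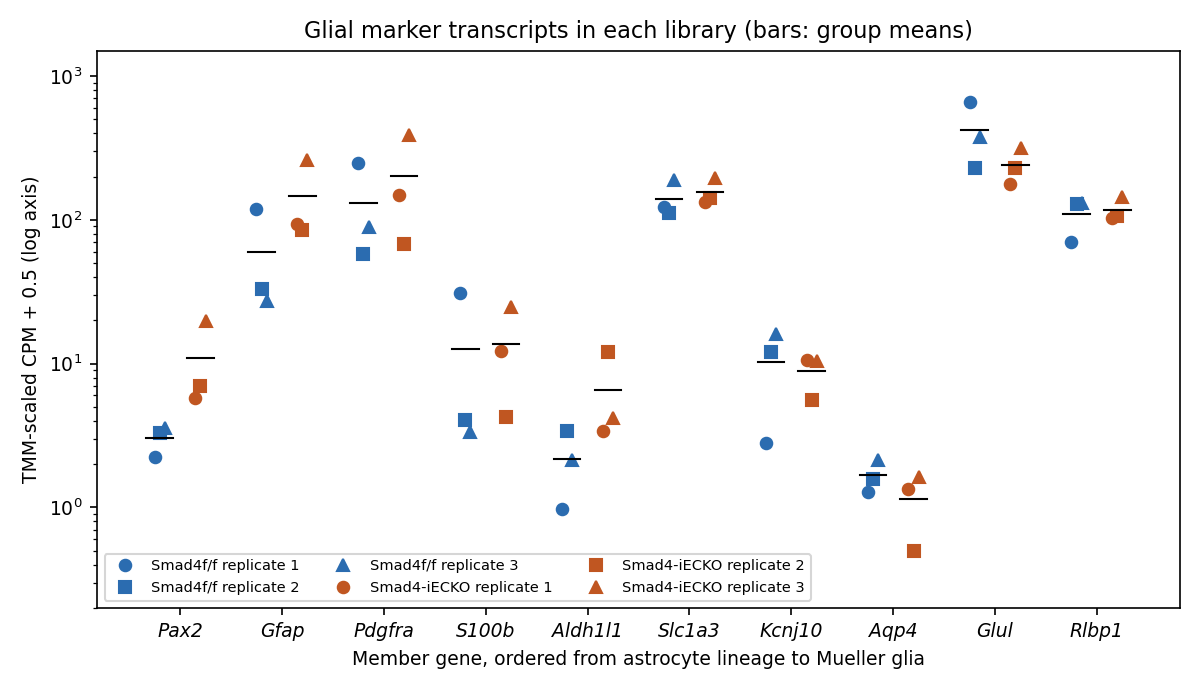
TMM-scaled CPM plus 0.5 on a log axis for the 10 genes, with 1 point per library, circles, squares and triangles for replicates 1, 2 and 3, and black bars at the group means. Pax2 is the only gene whose 3 Smad4-iECKO points all lie above the 3 Smad4f/f points, and Slc1a3 and Rlbp1 are the most even across libraries.

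The study asks which transcripts differ when the endothelium loses Smad4, the gene of the SMAD protein common to the BMP and TGF-beta pathways. For the glial markers the 3 astrocyte lineage genes had positive log2 fold changes, Pax2 and Gfap with the larger ones, and Glul was lower in Smad4-iECKO on average. By edgeR's quasi-likelihood F-test none of the 10 passed once p-values were adjusted (Benjamini-Hochberg) over 14362 genes, with an adjusted p of 0.9999 for each. The background was the same, with 0 of 14362 genes called (0%). Pax2 was the 1 member with an unadjusted p under 0.05, where 188 genes or 1.31% of all tested genes had one. DESeq2, run on the same 6 libraries, called 0 of the 10 and 12 of 19645 genes (0.0611%). Of the 10 genes 7 had a positive log2 fold change, against 48.2% of all tested genes. The median of the 10 was 0.16 against -0.017 over all genes. This count depended on single libraries. It was 3 of 10 without Smad4-iECKO replicate 3 (median -0.17) and 8 of 10 without Smad4-iECKO replicate 2 (median 0.37).

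**Figure D2:**
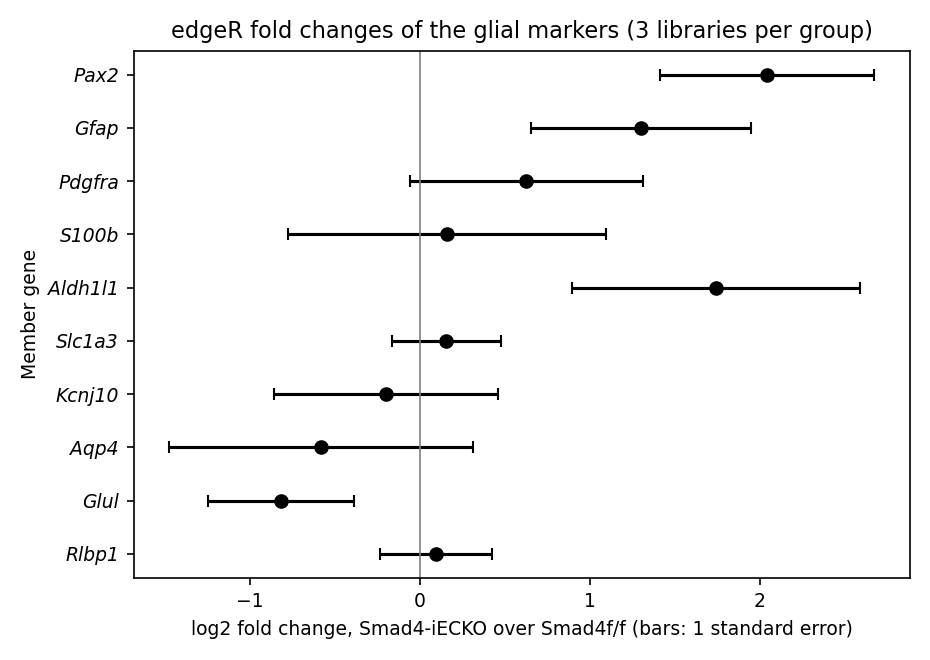
edgeR log2 fold changes of Smad4-iECKO over Smad4f/f, with bars of 1 standard error on each side (3 libraries per group). Pax2 at 2.04, Aldh1l1 at 1.75 and Gfap at 1.30 lie to the right, Glul at -0.82 and Aqp4 at -0.58 to the left, and none passed the adjusted test.

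Pax2 encodes the paired-box transcription factor that marks the astrocyte lineage from the optic stalk onward (chromosome 19, 44756045 to 44837871, mm10). In replicate order from 1 to 3, used for all lists of values here, the Smad4f/f libraries held 1.73, 2.798 and 3.07 CPM of it and the Smad4-iECKO libraries 5.28, 6.51 and 19.3 CPM. The groups did not overlap, and Smad4-iECKO replicate 3 stood well above the other 5 libraries. Of all tested genes, 2.49% were likewise higher in every Smad4-iECKO library. Mean levels were 2.53 ± 0.705 and 10.4 ± 7.76 CPM, and the edgeR log2 fold change was 2.04 ± 0.63 (standard error, as for all ± after a fold change here; adjusted p = 0.9999). These levels rest on few reads, with 22, 68 and 41 counts without Cre and 95, 14 and 242 counts with Cre. The 14 counts of the shallow Smad4-iECKO replicate 2 give an exact Poisson 95% interval of 3.56 to 10.9 CPM, which covers counting error only. Without Smad4-iECKO replicate 3 the log2 fold change was 1.19. The log2 fold change was 2.33 in the 4 libraries whose titles begin with Lit38 (2 per group) and 1.22 as the log2 ratio of the Lit40 pair (1 per group, no test).

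Gfap, the intermediate filament of astrocytes and of stressed Müller glia (chromosome 11, 102887336 to 102900912), followed another order of libraries. The Smad4f/f libraries held 118.8, 32.7 and 26.9 CPM and the Smad4-iECKO libraries 92.9, 84.1 and 260.9 CPM. The groups overlapped through Smad4f/f replicate 1, which held more Gfap than 2 of the Smad4-iECKO libraries although it held the least Pax2. Mean levels were 59.5 ± 51.5 and 146.0 ± 99.6 CPM, and the edgeR log2 fold change was 1.30 ± 0.65 (adjusted p = 0.9999). Without Smad4f/f replicate 1 the log2 fold change was 2.29 by edgeR and 2.28 by DESeq2, with a DESeq2 adjusted p of 0.0495, a fit that called 0.187% of genes. Without Smad4-iECKO replicate 3 it was 0.58. The Lit38 libraries gave 1.26 and the Lit40 pair 1.36.

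Pdgfra encodes the receptor for the PDGF-A that ganglion cells supply to astrocytes (chromosome 5, 75152292 to 75198215). Its levels were 247.1, 57.2 and 88.3 CPM without Cre and 149.2, 67.4 and 387.5 CPM with Cre. The highest library of each group lay far above the other two, and the groups overlapped. The log2 fold change was 0.63 ± 0.69, and it turned to -0.26 without Smad4-iECKO replicate 3. Its exons share 652 bases with 3 other annotated genes, Gm42802, Gm42803 and Mir7025. The ligand gene Pdgfa was at 7.23 ± 2.47 CPM in Smad4f/f and 8.66 ± 0.583 CPM in Smad4-iECKO. Fibroblasts and oligodendrocyte precursors also make this receptor. The 13 oligodendrocyte lineage genes summed to 646.9 to 815.7 CPM without Cre and 577.3 to 955.7 CPM with Cre, and 6 of 8 tested had positive log2 fold changes. Pcdh15, which photoreceptors also make, was 71.3% of that sum. Of the regulators, Olig2 was at 1.66 to 4.18 CPM over the 6 libraries, and Olig1 and Sox10 reached at most 0.449 and 0.237 CPM. The fibroblast gene Dcn reached at most 0.237 CPM. The collagen genes Col1a1 and Col1a2 were higher in every Smad4-iECKO library, as 2.49% of all tested genes were. Col1a1 was at 6.47, 2.22 and 5.69 CPM without Cre and 9.22, 40.4 and 8.13 CPM with Cre. Col1a2 was at 26.2, 17.4 and 25.4 CPM without Cre and 44.0, 294.7 and 50.8 CPM with Cre. Both were highest in Smad4-iECKO replicate 2, the library with the second lowest Pdgfra level. The 12 fibroblast genes together were at 69.1 to 246.2 CPM in Smad4f/f and 187.6 to 783.7 CPM in Smad4-iECKO, with 4 of 7 tested positive. The part of either cell type in the Pdgfra level was not tested.

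S100b, a calcium-binding protein of mature astrocytes and Müller glia (chromosome 10, 76253853 to 76261159), had the library order of Gfap with the top pair exchanged. The Smad4f/f libraries held 30.3, 3.58 and 2.84 CPM and the Smad4-iECKO libraries 11.8, 3.72 and 24.2 CPM. High and low libraries were present in both groups, and the log2 fold change was 0.16 ± 0.93. It ranged from -0.57 without Smad4-iECKO replicate 3 to 2.07 without Smad4f/f replicate 1. Schwann cells also make S100b. The other 7 genes of the Schwann and neural crest list summed to 30.6 to 75.1 CPM without Cre and 47.0 to 56.7 CPM with Cre, with the myelin gene Mbp at 79.8% of that sum. The regulator Sox10 was at 0 in 4 libraries and at 3 counts in each of the other two, and the part of these cells in the S100b level was not tested. Gfap, Pdgfra and S100b thus had Smad4f/f replicate 1 and Smad4-iECKO replicate 3 as their leading pair of libraries, followed in each case by Smad4-iECKO replicate 1. The same trio was highest in the summed CPM of the 14 microglial genes (117.6, 180.3 and 144.1 CPM in that order). It was also highest in the mean log2(CPM + 0.5) of the 24 further astrocyte genes and of the 27 gliosis genes described below. Gfap is among the gliosis genes. This did not hold for the summed CPM of these lists. For the astrocyte genes Smad4-iECKO replicate 2, at 3320 CPM, exceeded Smad4-iECKO replicates 1 and 3 (2648 and 3235 CPM). For the gliosis genes Smad4-iECKO replicate 2 was highest at 2699 CPM, and Smad4-iECKO replicate 1 was at 1625 CPM. Genes at 0 lower the mean log2(CPM + 0.5) of a library. Of the 27 gliosis genes, 10 were at 0 in the shallow Smad4-iECKO replicate 2. The number at 0 was 3 in each library of the trio, and 2 and 6 in Smad4f/f replicates 2 and 3.

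**Figure D3:**
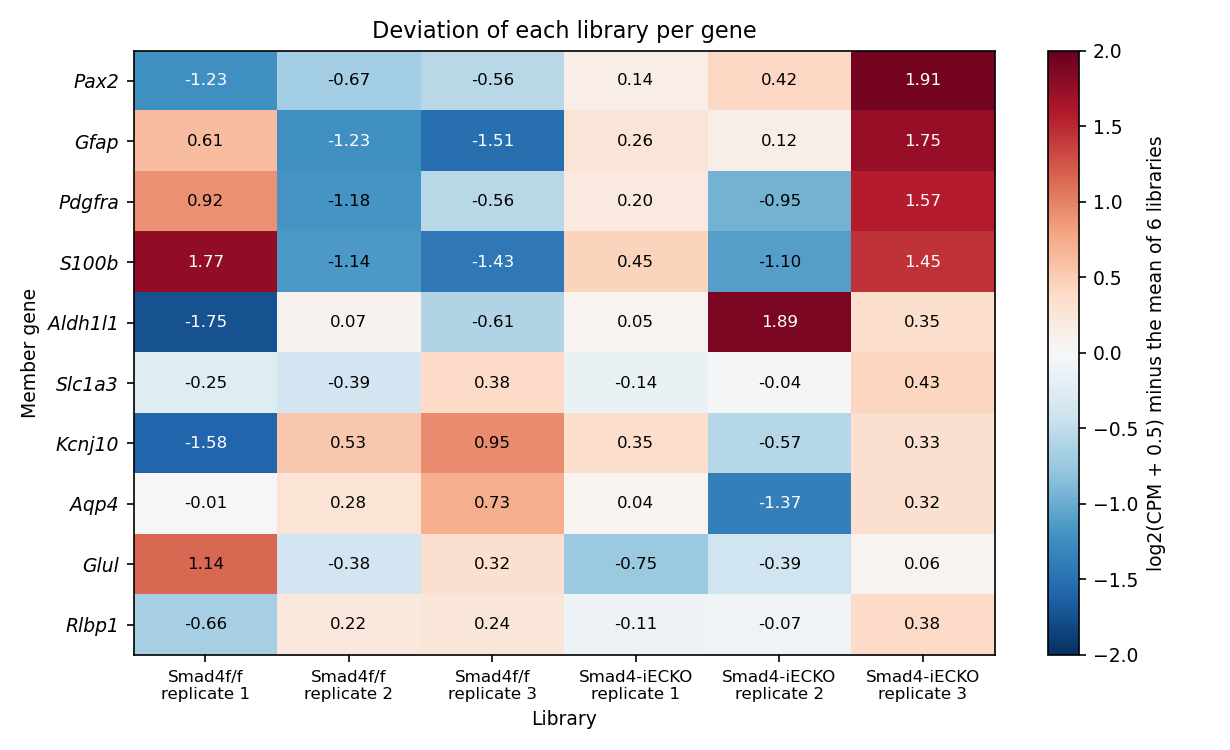
Each cell gives log2(CPM + 0.5) of a gene in a library minus that gene's mean over the 6 libraries, red above and blue below the mean. Gfap, Pdgfra and S100b are above their means in Smad4f/f replicate 1 and Smad4-iECKO replicates 1 and 3 (Gfap also in Smad4-iECKO replicate 2, by 0.12), while Pax2 is above its mean only in the 3 Smad4-iECKO libraries.

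Aldh1l1, the folate enzyme often used as a general astrocyte marker (chromosome 6, 90486427 to 90600203), was a low transcript here. It drew 6, 71 and 22 reads in the Smad4f/f libraries and 52, 25 and 46 in the Smad4-iECKO libraries. These correspond to 0.473, 2.92 and 1.65 CPM and to 2.89, 11.6 and 3.67 CPM. The shallow Smad4-iECKO replicate 2 was the highest library, with an exact Poisson 95% interval of 7.52 to 17.2 CPM, and the groups overlapped narrowly. The edgeR log2 fold change was 1.75 ± 0.85 (adjusted p = 0.9999). It was 0.90 without Smad4-iECKO replicate 2. The Lit38 libraries gave 1.60 and the Lit40 pair 1.99. Aldh1l1 shares exon sequence with 2 annotated genes, Gm45901 on the same strand and Gm15756 on the opposite strand, and reads there could be counted to either.

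Slc1a3, the glutamate transporter GLAST of astrocytes and Müller glia (chromosome 15, 8634124 to 8710764), was the most even of the 10. Levels were 121.7, 110.5 and 188.1 CPM without Cre and 131.5, 140.8 and 195.6 CPM with Cre. Each group had replicate 3 as its highest library. The log2 fold change was 0.16 ± 0.32.

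Kcnj10 encodes the inward rectifier Kir4.1, which buffers potassium at glial endfeet (chromosome 1, 172341210 to 172374085). The Smad4f/f libraries held 2.29, 11.6 and 15.6 CPM and the Smad4-iECKO libraries 10.1, 5.11 and 9.97 CPM. The Smad4f/f libraries enclosed all Smad4-iECKO values, and the log2 fold change was -0.20 ± 0.66. Smad4f/f replicate 1, the lowest for this channel, was the highest for S100b and Glul.

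Aqp4, the water channel of glial endfeet (chromosome 18), was close to the limit of detection. It drew 10, 26 and 22 reads in the Smad4f/f libraries and 15, 0 and 14 in the Smad4-iECKO libraries. The value of 0 in Smad4-iECKO replicate 2 allows a level of up to 1.39 CPM (3 counts). The other two Smad4-iECKO levels, 0.833 and 1.12 CPM, lay within the Smad4f/f range of 0.788 to 1.65 CPM. A difference in Aqp4 was not detectable at this depth (log2 fold change -0.58 ± 0.89).

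Glul, whose product converts glutamate to glutamine in Müller glia and astrocytes and is also known in other cell types (chromosome 1, 153899944 to 153909723), had the lowest log2 fold change of the 10. Levels were 662.1, 229.6 and 375.8 CPM without Cre and 178.2, 228.2 and 313.1 CPM with Cre. Mean levels were 422.5 ± 220.0 and 239.8 ± 68.2 CPM. The groups overlapped, and the edgeR log2 fold change was -0.82 ± 0.43 (adjusted p = 0.9999). Without Smad4f/f replicate 1 the log2 fold change was -0.34. That library also held the highest summed level of the 18 endothelial genes, at 8784 CPM against 1715 to 5660 CPM in the other 5, and the part of endothelial RNA in the Glul level was not tested. In the Lit40 pair the Glul levels were nearly equal (log2 ratio -0.0085), while the Lit38 libraries gave a log2 fold change of -1.10. Exons of Glul share 209 bases with Teddm2 and Mir8114.

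Rlbp1 (chromosome 7, 79374870 to 79387048) gives the other view of Müller glia. The Smad4f/f libraries held 69.9, 128.6 and 130.7 CPM and the Smad4-iECKO libraries 102.5, 105.5 and 143.9 CPM. The groups overlapped and 5 of the 6 libraries lay above 100 CPM. The log2 fold change was 0.097 ± 0.33. Pigment epithelium also makes Rlbp1. The other 11 genes of the pigment epithelium list summed to 17.7 to 19.5 CPM without Cre and 18.3 to 30.7 CPM with Cre, and 5 of 6 tested had positive log2 fold changes. Of its genes, the transthyretin gene Ttr was at 0.823 to 3.59 CPM and the isomerase gene Rpe65 at 0 to 0.4999 CPM over the 6 libraries. The part of these cells in the Rlbp1 level was not tested.

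**Figure D4:**
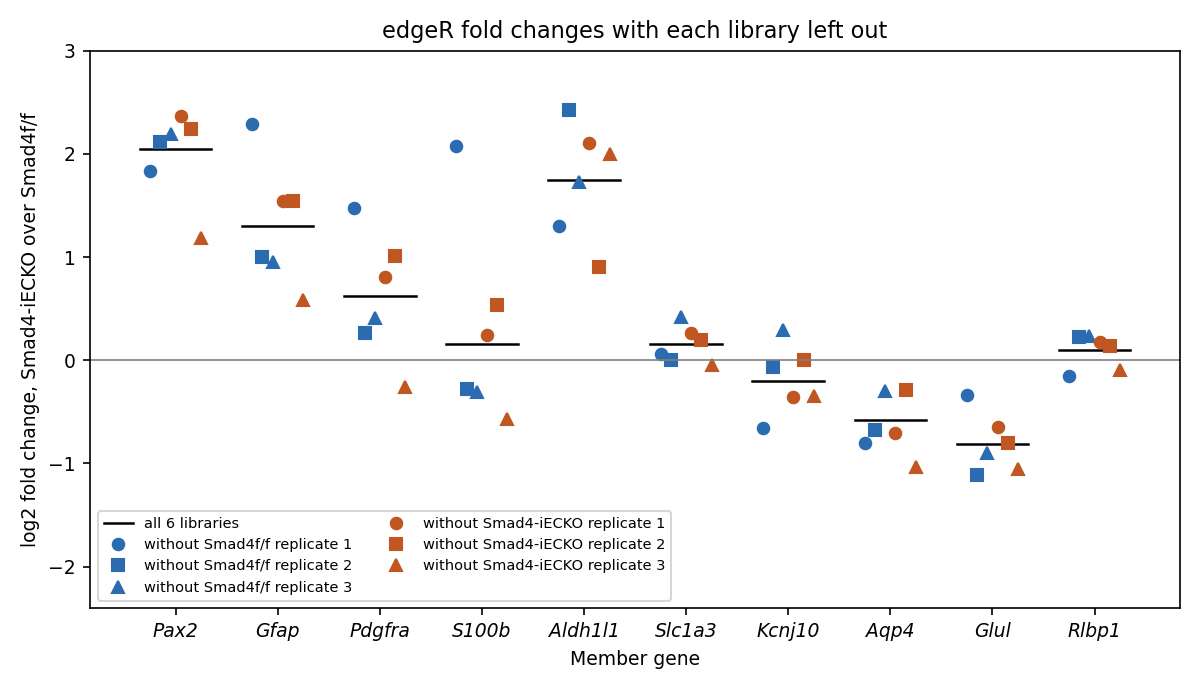
edgeR log2 fold changes of the 10 genes with all 6 libraries (black lines) and with each library left out in turn (points). Pax2, Gfap, Aldh1l1, Glul and Aqp4 stay on one side of 0, whereas Pdgfra, S100b, Slc1a3, Kcnj10 and Rlbp1 cross it.

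The deposited analysis by the authors read these genes differently. Of 9 members with an adjusted p in the authors' deposited table, 4 were under 0.05, against 13.4% of 14225 genes. Of the 4, 3 were higher, against 7.7% of all genes in the authors' deposited table, and 1 was lower, against 5.69%. They were Pax2 (log2 fold change 1.68, adjusted p = 5.55e-08), Aldh1l1 (1.24, adjusted p = 0.0021), Gfap (0.96, adjusted p = 0.017) and Glul (-0.72, adjusted p = 0.0128) in the authors' deposited table. The count table holds 3 columns per sample with the same value in every gene. A DESeq2 fit that took all 18 columns as separate replicates called the same 4 members, and 12.1% of 18526 genes. With fold shrinkage added, its log2 fold changes differed from the authors' deposited table by a median of 0.0021 over 19650 genes, against 0.0787 for the same fit on 6 columns. With 1 column per sample none of the 4 passed.

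Other genes of the same cell types gave no call either, by edgeR or by DESeq2 on the 6 libraries. Of 24 further astrocyte genes 20 were tested, 14 with positive and 6 with negative log2 fold changes (median 0.31), and edgeR called 0, with 2 at an unadjusted p under 0.05. The 4 with the smallest p were Igfbp5, Gpc4, Agt and Sparcl1. Igfbp5, an IGF-binding protein, was at 61.7 ± 35.95 CPM in Smad4f/f and 145.9 ± 74.4 CPM in Smad4-iECKO. The heparan sulfate proteoglycan Gpc4 was at 6.39, 7.98 and 15.6 CPM without Cre and 20.2, 15.3 and 28.0 CPM with Cre. The secreted glycoprotein Sparcl1 was at 789.7 ± 826.8 and 341.9 ± 125.1 CPM, with 1730 CPM in Smad4f/f replicate 1. That library held the highest summed level of the 18 endothelial genes (8784 CPM) and of the 13 pericyte and smooth muscle genes (3007 CPM). The part of these cells in the Sparcl1 level was not tested.

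Of 25 further Müller glia genes 24 were tested, 14 positive and 10 negative (median 0.18), with 0 called and 1 at an unadjusted p under 0.05. This list holds Kdr, which endothelial cells also make. The channel gene Trpm3 was at 137.8 ± 10.95 CPM in Smad4f/f and 216.5 ± 19.3 CPM in Smad4-iECKO. Sox9, the transcription factor of Müller glia and astrocytes, was at 10.7, 25.3 and 22.8 CPM without Cre and 31.99, 26.5 and 34.9 CPM with Cre. Both were higher in all 3 Smad4-iECKO libraries, as 2.49% of all tested genes were. The aquaporin gene Aqp11 was at 5.91 ± 2.28 and 2.44 ± 1.17 CPM and lower in all 3, as 2.83% of all tested genes were. The collagen gene Col9a1 was highest in Smad4-iECKO replicate 2, at 222.7 CPM.

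Genes for water, potassium and glutamate handling were evenly divided, with 9 positive and 9 negative of 18 tested (median -0.0025), 0 called and 1 at an unadjusted p under 0.05. The neutral amino acid transporter Slc1a4 was at 141.0 ± 93.2 CPM in Smad4f/f and 50.2 ± 21.7 CPM in Smad4-iECKO. Slc38a3, a glutamine transporter, was at 200.3 ± 45.3 and 156.1 ± 25.1 CPM, with overlapping groups.

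Gliosis genes, those that reactive glia are known to make, had 12 positive and 7 negative log2 fold changes of 19 tested (median 0.47), with 0 called and 2 at an unadjusted p under 0.05. Gfap is in this list too. The positive median depended on single libraries. Leaving out 1 library at a time gave medians from -0.025 (without Smad4-iECKO replicate 2, 10 of 20 positive) to 0.94 (without Smad4f/f replicate 1, 13 of 19 positive). In the Lit38 libraries alone the median was -0.19, with 9 of 20 positive. Tnc, the matrix protein tenascin C, was at 48.4 ± 11.5 and 84.2 ± 27.3 CPM and higher in all 3 Smad4-iECKO libraries. So was the endothelin receptor gene Ednrb, at 7.68 ± 3.48 and 15.2 ± 0.338 CPM. In all, 3 of the 19 were higher without overlap, beside 2.49% of all tested genes. The cytokine receptor gene Osmr was on the other side, at 36.2 ± 22.7 CPM in Smad4f/f and 12.6 ± 8.15 CPM in Smad4-iECKO. Spp1 was at 0 in the shallow Smad4-iECKO replicate 2 and at 2.72 and 6.14 CPM in the other Smad4-iECKO libraries.

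Signals between astrocytes, neurons and vessels had 17 positive and 9 negative log2 fold changes of 26 tested (median 0.25), with 0 called and 3 at an unadjusted p under 0.05. Those 3 were Vegfa, Apln and Pgf. Vegfa, which astrocytes secrete ahead of the growing vessels, was at 185.1, 136.0 and 147.7 CPM without Cre and 352.0, 364.0 and 238.7 CPM with Cre. Its order within Smad4-iECKO was not that of Pax2, since replicate 3 was the lowest for Vegfa and the highest for Pax2. Apln, a tip cell ligand, and the VEGF family member Pgf were also higher in all 3 Smad4-iECKO libraries, as was the laminin gene Lama1 (47.9 ± 11.6 against 76.5 ± 17.4 CPM). The count of 4 without overlap on the higher side of 26 stands beside 2.49% of all tested genes.

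Markers of other cells were not called by edgeR either, and the summed levels of the microglial and endothelial lists overlapped between the groups. The 14 microglial genes together were at 60.3 to 117.6 CPM in Smad4f/f and 111.1 to 180.3 CPM in Smad4-iECKO, and 5 of the 14 were higher in all 3 Smad4-iECKO libraries, where 2.49% of all tested genes were. Of the 14, 12 had positive log2 fold changes (median 0.91, against -0.017 over all genes), with 0 called and 3 at an unadjusted p under 0.05. Of the 2 defining microglial markers, Cx3cr1 was at 5.60 to 8.68 CPM in Smad4f/f and 3.72 to 17.0 CPM in Smad4-iECKO (log2 fold change 0.86 ± 0.56). P2ry12 was at 2.06 to 5.31 and 0 to 3.99 CPM (log2 fold change -0.38 ± 0.87), so both overlapped between the groups. The P2ry12 value of 0 was in the shallow Smad4-iECKO replicate 2, which allows a level of up to 1.39 CPM. Smad4-iECKO replicates 1 and 3, at 3.33 and 3.99 CPM, lay within the Smad4f/f range. The endothelial list had 4 positive and 14 negative log2 fold changes of 18 (median -0.39), with 0 called and 1 at an unadjusted p under 0.05. None of its genes was without overlap. Its summed level was 2922 to 5660 CPM in Smad4-iECKO, inside the Smad4f/f range of 1715 to 8784 CPM. The part of either cell type in the glial levels was not tested.

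The genes whose library pattern was most like that of Pax2 were 5031434O11Rik, Ttll8, Zmat3, Adamts16 and Pygl, out of 14039 candidates. Likeness was the root mean square difference of log2(CPM + 0.5), each gene centred on its own mean, over the 6 libraries. It was 0.46 for 5031434O11Rik and 0.51 for Pygl. For Rlbp1 the nearest were Rnf26 (0.066), Pcbp1 (0.090), Tnks (0.091), Wipf2 (0.098) and Ccdc6 (0.099). The measure is not scaled to a gene's own spread, 11.1-fold over the libraries for Pax2 and 2.06-fold for Rlbp1, so the values of the 2 genes cannot be set against each other. None of these 10 genes belongs to the glial lists used here.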

How the data were processed

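Members and gene lists were chosen with earlier results of these data known. The authors' deposited table of whole-number read counts per gene has 18 columns, 3 per sample with identical values in all 24421 genes, and 1 per sample was used (n = 3 per group). STAR, DESeq2 and mm10 are named per the submitters' processing notes, without versions. The sources used here do not give the counting tool or the annotation. Per the file headers, the authors' deposited comparison gives p-values (unadjusted and adjusted), a test score, log2 fold changes with standard errors and a mean normalized signal.

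Counts were tested with edgeR 4.0.16 (R 4.3.3) by the quasi-likelihood F-test, with TMM scaling, filterByExpr (minimum count 10, minimum total 15), no covariate and a Benjamini-Hochberg adjusted p under 0.05 over 14362 genes. The standard error was the log2 fold change divided by the square root of F. Alternatives used DESeq2 1.42.0 and voom from limma 3.58.1. The scripts were tested on simulated data. Groups came from the genotype label. Replicates are numbered in accession order, and whether samples came from separate pups is not stated, so the p-values cover only the spread among these samples, which may be technical. Titles begin with Lit38 or Lit40, which the labels do not explain. A count of 3, taken as the floor, was 1.39 CPM in Smad4-iECKO replicate 2 and 0.123 to 0.239 CPM in the others. Named genes were the members, Smad4, cell type markers, the 4 smallest p of each wider list and the 5 nearest patterns to Pax2 and Rlbp1. Pdgfa, a list member outside this rule, was named with its values seen. Coordinates and exonic lengths are from GENCODE M21 (mm10), promoters from RefSeq, and figures from matplotlib 3.10.9.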

Additional observations from a re-analysis of the deposited data

How the results depend on the processing

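Of 17 alternatives planned, all but one called 0 members and 0 genes of the 5 wider lists. The exception, DESeq2 on all 18 columns, called 4 members, 4 other astrocyte genes, 6 other Müller glia genes, 2 genes of water, potassium and glutamate handling, 6 gliosis genes and 7 signalling genes. With fold shrinkage, added after the data were seen, these counts were 4, 4, 6, 2, 6 and 6. DESeq2 with each library left out, also added, called between 0 and 1 members, between 0 and 1 gliosis genes and between 0 and 1 signalling genes, each 1 without Smad4f/f replicate 1. Pax2, Gfap, Aldh1l1, Glul and Aqp4 kept their sign in every alternative that tested them. Thinning to 2233360 counts removed Aldh1l1 and Aqp4 from the test. The other 5 genes changed sign in at least 1 alternative without a call. Leaving out 1 library at a time gave Pdgfra -0.26 to 1.47, S100b -0.57 to 2.07 (-0.28 and -0.31 when Smad4f/f replicates 2 and 3 were dropped), Rlbp1 -0.15 to 0.24 (-0.091 without Smad4-iECKO replicate 3), Slc1a3 -0.049 to 0.42 and Kcnj10 -0.66 to 0.29 (0.0038 without Smad4-iECKO replicate 2) by edgeR. DESeq2 gave Pdgfra -0.26 to 1.47, S100b -0.61 to 2.06 (-0.30 and -0.34 without Smad4f/f replicates 2 and 3), Rlbp1 -0.15 to 0.25 (-0.072 without Smad4-iECKO replicate 3), Slc1a3 -0.031 to 0.42 and Kcnj10 -0.65 to 0.28 (0.014 without Smad4-iECKO replicate 2). Kcnj10 was 0.15 in the Lit38 libraries alone and 0.26 after thinning. Limma-voom with sample quality weights gave Rlbp1 -0.043 and Slc1a3 -0.025. Scaling to the 18 endothelial genes moved the median of all genes to -0.27, with Rlbp1 at -0.36 and Slc1a3 at -0.039, or -0.088 and 0.24 relative to that median. No paired analysis was possible because replicate numbers follow accession order; a fit with the title prefix as a replicate block called 0 members and gave Pax2 1.99. Aqp4, S100b, Kcnj10, Pax2 and Aldh1l1 are limited by depth in Smad4-iECKO replicate 2, with 0, 8, 11, 14 and 25 counts there.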

Other observations

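Ratios of counts within a library do not depend on the scaling between libraries. They are given as values with no test, since they were chosen after the data were seen. Pax2 to Rlbp1 was 0.0248, 0.0218 and 0.0235 in Smad4f/f replicates 1, 2 and 3, and 0.0515, 0.0617 and 0.134 in Smad4-iECKO replicates 1, 2 and 3. The Smad4f/f libraries were thus close to each other in this ratio of an astrocyte to a Müller glia marker, and the Smad4-iECKO libraries lay above them. The closeness holds for Rlbp1 and not for Glul, the other Müller glia marker. Glul to Rlbp1 was 9.47, 1.79 and 2.88 in the same Smad4f/f libraries. For Gfap to Rlbp1 the values were 1.70, 0.254 and 0.206 without Cre and 0.906, 0.797 and 1.81 with Cre, with overlapping groups. Pax2 to Gfap was 0.0146 in Smad4f/f replicate 1 and 0.0568 to 0.114 in the other 5 libraries, so this library had much Gfap for its Pax2. Glul to Rlbp1 was 9.47 in the same library and 1.74 to 2.88 in the other 5.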
